A study of Mus musculus with 17 samples.

Results

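Ifitm1, Ifitm2 and Ifitm3 encode interferon-induced transmembrane proteins, and their transcript levels were followed in cultured mouse CD4 T cells. The 3 genes were chosen because their levels were low where retinoic acid (RA), a metabolite of vitamin A, had been added to a co-culture of T cells and dendritic cells (DC). Each has 1 probe set, so 3 of the 45101 probe sets and 3 of the 18194 named genes are described here. All 3 passed the filter on low values, which asked for a value over the array's median on 2 or more arrays of an experiment.

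The study compared T cells cultured with transforming growth factor beta (TGFbeta) and DC of different tissues, with or without RA, on 17 arrays in 8 groups. In the first experiment (11 arrays), splenic CD4+Foxp3- T cells of C57BL/6-Foxp3/GFP mice, in which green fluorescent protein reports the transcription factor Foxp3 of regulatory T cells, were cultured for 5 days. They were mixed with spleen DC (Sp-DC), with Sp-DC plus 100 nM RA, or with lamina propria DC (LP-DC), at 10 T cells per DC. All 3 cultures held anti-CD3 at 1 ug/ml, TGFbeta at 0.6 ng/ml, and IL-2 at 5 ng/ml on days 2 and 4, and T cells with (Foxp3+) and without (Foxp3-) the reporter were separated at the end. Each of these 6 groups has 2 arrays, except Foxp3- cells cultured with RA, which have 1. In the second experiment (6 arrays), CD44hiCD62L-CD25- memory CD4 cells of C57BL/6 spleen and lymph nodes were cultured for 48 hours with naive CD4 cells at 2 memory cells per naive cell. These cultures held anti-CD3/CD28 beads, IL-2 at 20 U/ml and TGFbeta at 10 ng/ml, with or without 100 nM RA (3 arrays each). The memory cells were recovered by their congenic marker. Mice were 6 to 10 weeks old, and each array holds cells of 3 pooled mice.

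IFITM proteins are small proteins of the plasma and endosomal membranes, best known for hindering the entry of enveloped viruses into the cell. Their genes are induced by interferons of type I and type II, and Ifitm1, Ifitm2 and Ifitm3 lie beside each other in a cluster. In lymphocytes, IFITM1 (also called Leu-13) is known as a partner of the tetraspanin CD81 at the cell surface, and Ifitm3 (fragilis) and Ifitm1 are also classical markers of early germ cells.

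Some arrays went against their labels, which bears on every comparison below. All arrays are labelled as made from male mice, yet the 5 co-culture arrays numbered 1 carried Xist, the transcript of the inactive X chromosome, at 12.07 to 12.44 (log2 intensity) and the Y-linked Eif2s3y at 2.67 to 3.23. The 6 co-culture arrays numbered 2 had Xist at 3.80 to 4.12 and Eif2s3y at 10.88 to 11.20. The 2 memory arrays numbered 1 carried both, with Xist at 8.36 to 10.18 and Eif2s3y at 8.61 to 8.75. The Foxp3 probe set read 3.88 to 4.53 on all 11 co-culture arrays, Foxp3+ and Foxp3- alike. On the 6 memory arrays the same probe set read higher, at 7.08 to 9.14. Gpr83, another transcript of regulatory T cells, read 7.87 to 10.16 in Foxp3+ and 6.30 to 7.50 in Foxp3- cells. Of the 9 T cell markers with a probe set, 9 lay above the array median in every group. Array medians were 5.88 to 5.98. Of 11 DC markers with a probe set, 6 to 8 by group lay above the array median on every array, and of 9 monocyte and macrophage markers 3 did in each group. By group mean, H2-Aa (class II) reached 7.40 and Adgre1 8.92, while Itgax (DC), at 5.46 to 5.73, and Lyz2, at 5.31 to 5.50, lay under the medians.

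The promoters of the 3 genes are shown because the genes were chosen together for low levels with RA and are known as interferon targets. The sequences are from RefSeq (build GRCm38.p6), run 5′ to 3′ on the gene's own strand, and cover 60 bases before and 30 bases after the first base of the transcript. Capitals mark matches to the core of the interferon-stimulated response element, GAAANNGAA.

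Ifitm1, plus strand, chr7:140968016-140968105: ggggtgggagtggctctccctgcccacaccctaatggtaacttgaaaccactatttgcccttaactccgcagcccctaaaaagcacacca

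Ifitm2, minus strand, chr7:140955932-140956021: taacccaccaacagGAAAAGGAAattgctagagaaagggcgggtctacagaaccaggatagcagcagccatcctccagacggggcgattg

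Ifitm3, minus strand, chr7:141010715-141010804: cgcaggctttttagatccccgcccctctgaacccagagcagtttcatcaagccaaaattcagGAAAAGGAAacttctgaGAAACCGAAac

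The search covered both strands of 300 bases, from 250 before to 50 after the start. GAAANNGAA occurred once in Ifitm2, at bases -46 to -38, and 2 times in Ifitm3, at bases 3 to 11 and 20 to 28 of the transcript. It was not among the letters of this window in Ifitm1, and 8.56% of all 32851 promoters held it. The gamma-activated site TTCNNNGAA occurred once, in Ifitm3 at bases 14 to 22, where it shares bases with the second GAAANNGAA, against 8.30% of all promoters. Direct repeats of AGGTCA or AGTTCA, the elements RA receptors are known to bind, with 5, 2 or 1 bases between them were in none of the 3 windows and in 0.0396%, 0.0396% and 0.0822% of all promoters. These matches describe letters and do not show that a factor binds.

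Levels are log2 of the deposited intensity. Probe sets differ in how they bind, so a level is set only against other levels of the same gene. Ifitm1 was highest with Sp-DC, at 11.87 and 11.48 in Foxp3+ cells and 11.69 and 11.64 in Foxp3- cells. With LP-DC it read 11.27 and 10.57 in Foxp3+ and 10.19 and 10.68 in Foxp3- cells. With Sp-DC plus RA it read 7.42 and 7.07 in Foxp3+ cells and 7.78 on the single Foxp3- array. Every array of the culture with RA thus lay more than 2 log2 units below every other co-culture array. Memory cells held Ifitm1 at 7.96, 7.45 and 6.72 without RA and 6.83, 6.91 and 6.52 with RA, and these groups overlapped.

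Ifitm2 read 11.28 and 10.97 in Foxp3+ and 10.71 and 10.89 in Foxp3- cells of the Sp-DC culture. With LP-DC it read 10.75 and 10.73 in Foxp3+ and 8.73 and 9.79 in Foxp3- cells. With Sp-DC plus RA it read 8.29 and 9.32 in Foxp3+ cells and 8.89 in Foxp3- cells. The Foxp3- cells of the LP-DC culture thus overlapped the arrays with RA, while the other 3 groups without RA lay above them. In memory cells Ifitm2 was at 8.32, 8.56 and 6.95 without RA and 7.30, 8.11 and 6.74 with RA, and the arrays numbered 3 were the lowest of each group.

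Ifitm3 read 12.20 and 10.66 in Foxp3+ and 10.37 and 10.59 in Foxp3- cells with Sp-DC. With LP-DC the Foxp3+ cells, at 12.04 and 12.29, were well above the Foxp3- cells, at 8.76 and 10.38. With Sp-DC plus RA it read 7.43 and 7.49 in Foxp3+ and 6.49 in Foxp3- cells, below all 8 other co-culture arrays. Memory cells were at 8.65, 8.43 and 8.24 without RA and at 5.86, 6.90 and 5.43 with RA, and these groups did not overlap.

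**Figure D1:**
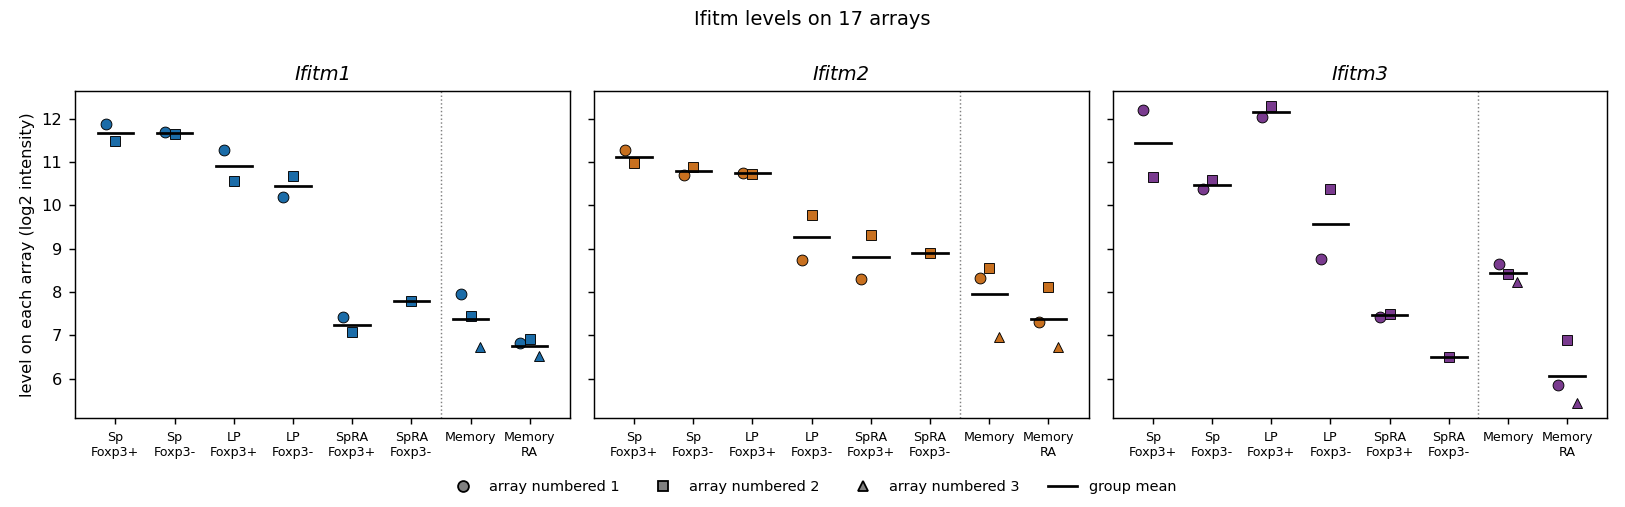
Level of each Ifitm gene (log2 intensity, y axis) on each of 17 arrays, by group (x axis), with 1 symbol per array number and a bar at the group mean; the dotted line parts the co-culture from the memory experiment. The arrays with RA (SpRA) lie at 7.07 to 7.78 for Ifitm1 and at 6.49 to 7.49 for Ifitm3, below all other co-culture arrays.

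By group mean, the order of Ifitm1 was Sp-DC Foxp3+ (11.67 ± 0.28, SD, n = 2), Sp-DC Foxp3- (11.66 ± 0.03), LP-DC Foxp3+ (10.92 ± 0.49), LP-DC Foxp3- (10.44 ± 0.35), RA Foxp3- (7.78), memory (7.38 ± 0.62, n = 3), RA Foxp3+ (7.24 ± 0.25) and memory with RA (6.76 ± 0.21). Neighbours in this order overlapped, except Sp-DC Foxp3- against LP-DC Foxp3+, LP-DC Foxp3- against RA Foxp3-, where the gap was 2.65, and RA Foxp3+ against memory with RA. Ifitm2 ran from Sp-DC Foxp3+ (11.12 ± 0.22) to memory with RA (7.38 ± 0.69), with its widest gap, 1.48, between LP-DC Foxp3+ and LP-DC Foxp3-. Only these neighbours, and Sp-DC Foxp3+ against Sp-DC Foxp3-, did not overlap. Ifitm3 ran from LP-DC Foxp3+ (12.16 ± 0.18) to memory with RA (6.06 ± 0.76). Between them came Sp-DC Foxp3+ (11.43 ± 1.09), Sp-DC Foxp3- (10.48 ± 0.16), LP-DC Foxp3- (9.57 ± 1.15), memory (8.44 ± 0.21), RA Foxp3+ (7.46 ± 0.04) and RA Foxp3- (6.49). In this order LP-DC Foxp3+ overlapped Sp-DC Foxp3+, Sp-DC Foxp3- overlapped LP-DC Foxp3-, RA Foxp3- overlapped memory with RA, and the other neighbours did not overlap. The experiments differ in culture, time and cells, so the order across them is a description.

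Of the 7 Ifitm genes with a probe set, the other 4 varied less between groups. Group means of Ifitm5, a bone-forming cell gene of the same cluster, ran from 6.16 to 6.56, and those of Ifitm7 from 6.69 to 7.06. Neither passed in any of 10 comparisons in either fit. Group means of Ifitm6 (4.73 to 5.73) and Ifitm10 (5.52 to 5.73) lay under the array medians, and these genes were not tested.

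RA in the co-culture is the contrast the 3 genes were chosen on, and its values are given as a description. In Foxp3+ cells Ifitm1 was 21.6-fold lower with RA (log2 difference -4.43 ± 0.28, standard error), Ifitm3 15.6-fold lower (-3.96 ± 0.57) and Ifitm2 4.98-fold lower (-2.32 ± 0.40). These were the largest, the second largest and the ninth largest fall among 11695 genes tested. Just beside Ifitm2 in that order stood Rapgef3 (-2.33) and S100a4 (-2.27). In Foxp3- cells, with 1 array and the spread taken from the other groups, the differences were -3.88 ± 0.34 for Ifitm1, -1.91 ± 0.48 for Ifitm2 and -3.99 ± 0.70 for Ifitm3.

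Array numbers were also taken 1 at a time. Between the Foxp3+ arrays numbered 2 alone, RA minus no RA was -4.41 for Ifitm1, -1.64 for Ifitm2 and -3.16 for Ifitm3. Between those numbered 1 it was -4.45, -2.99 and -4.76. The Foxp3- arrays numbered 2 differed by -3.86, -2.00 and -4.10. The limma fit without the array number (unpaired) called 1 of the 3 genes, Ifitm1, lower in Foxp3+ cells at an adjusted p of 0.05, and the fit with the array number as a block (paired) called 3. Among all genes these fits called 0.00855% and 0.522% lower. The groups did not overlap for 3 of 3 Ifitm genes in either sort, against 12.3% of all genes lower without overlap in Foxp3+ cells and 22.1% in Foxp3- cells. In Foxp3- cells the fits called 1 and 2 of 3, against 0.00855% and 0.12% of all genes. Because the genes were chosen on this contrast, nothing is read from these counts.

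Retinoid genes rose in the same cells. Of 10 tested genes of a retinoid list, 4 rose in Foxp3+ cells in the unpaired and 6 in the paired fit, against 0.0941% and 0.607% of all genes. They include Ccr9, a gut-homing chemokine receptor (5.29 ± 0.62, limma adjusted p = 0.0233), and Cyp26b1, which breaks RA down (2.72 ± 0.15, adjusted p = 0.000508). The summed level of 5 CD8 T and NK cell markers was 3802 to 4561 in Sp-DC Foxp3+ cells and 1929 to 1962 with RA (linear intensity, range over arrays). On average Nkg7 was at 11.72 without and 10.60 with RA (log2) and Klrd1 at 9.26 and 7.83. Cd8a went the other way, at 5.83 and 6.35, and Cd8b1 and Ncr1 lay under the array medians. The sum of 9 monocyte and macrophage markers was 594.2 to 670.0 without and 704.2 to 932.9 with RA, with Adgre1 at 7.70 and 8.54 (log2) on average. Lyz2 (5.32 and 5.31), Csf1r (6.63 and 6.62) and Fcgr1 (6.83 and 6.82) stayed level. A linear sum follows its strongest genes, so neither sum shows that a cell type changed. The part of these markers in the Ifitm differences was not tested. In bulk cells, fewer cells that carry a transcript and less of it per cell cannot be told apart.

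**Figure D2:**
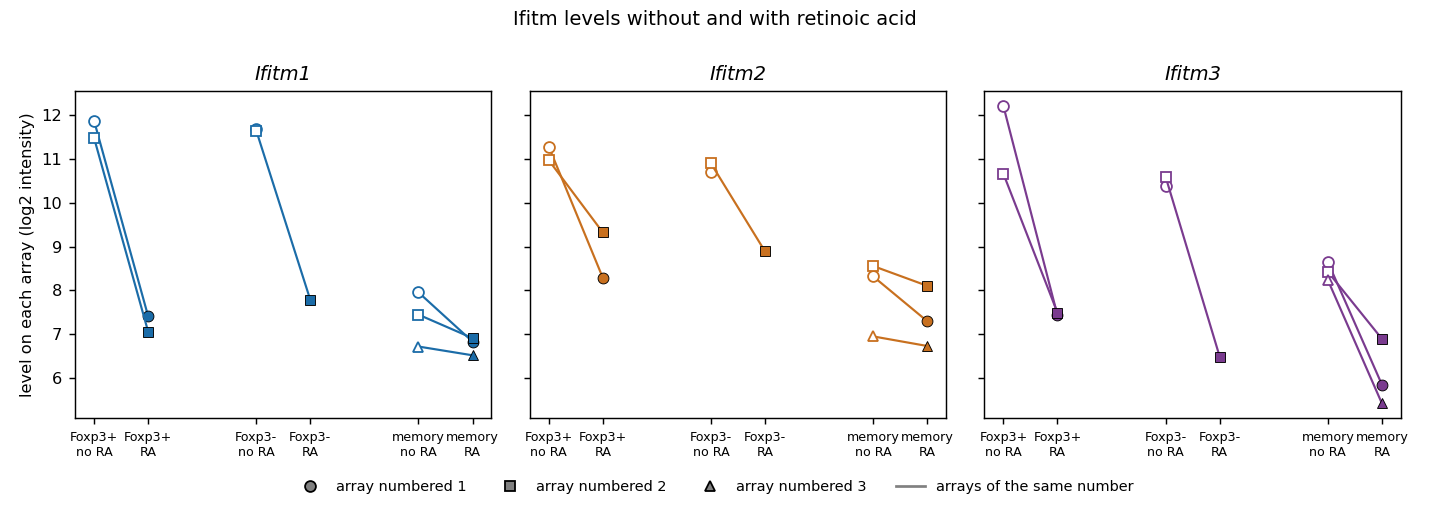
Level of each Ifitm gene (log2 intensity, y axis) without RA (open symbols) and with RA (filled) in Foxp3+, Foxp3- and memory cells (x axis); lines join arrays of the same number. Every line goes down; the Ifitm1 differences are -4.45 and -4.41 in Foxp3+ cells and -1.12 to -0.20 in memory cells.

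RA in memory cells was measured on arrays that the choice of the genes did not use. Ifitm3 fell with RA in the paired fit (-2.38 ± 0.23, limma adjusted p = 0.00051), but the unpaired fit did not call it (-2.38 ± 0.39, adjusted p = 0.148). With RA it lay above the array median on 1 of 3 arrays, the others being at 5.86 and 5.43, so the size of the fall is uncertain. A setting added after seeing the data set values under the array median to that median. Ifitm3 was then 4.54-fold lower with RA (-2.18 ± 0.21 paired, limma adjusted p = 0.00275 paired and 0.111 unpaired). This value is an estimate and not a lower bound. As measured, the difference was -2.79, -1.53 and -2.81 between arrays numbered 1, 2 and 3, so it was lower on 3 of 3.

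For Ifitm1 and Ifitm2 the groups overlapped and neither fit made a call. Ifitm1 differed by -0.62 (± 0.33 unpaired, limma adjusted p = 1; ± 0.18 paired, 0.101) and Ifitm2 by -0.56 (± 0.52, adjusted p = 1; ± 0.17 paired, 0.114). Same-numbered arrays were lower with RA in 3 of 3 pairs for both genes, at -1.12 to -0.20 for Ifitm1 and -1.02 to -0.22 for Ifitm2. So 0 of 3 genes were called unpaired and 1 of 3 paired, against 0.0252% and 2.16% of all genes called lower. At an unadjusted p of 0.05 the counts were 1 and 3, against 469 and 1831 of 11921 genes in either direction. For 1 of 3 the groups did not overlap, against 3.42% of all genes. Without the 2 memory arrays numbered 1, which carried Xist, Ifitm3 differed by -2.17 and was called in the paired fit (adjusted p = 3.96e-09) but not unpaired (adjusted p = 1). That paired fit rests on 2 pairs of arrays, at -1.53 and -2.81. Its p-value leans on the variance moderated over all genes and is not a measure of stronger evidence.

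Retinoid genes rose in the memory cells too, 1 of 12 tested unpaired and 8 paired, against 0.0168% and 2.46% of all genes, led by Itga4, the alpha 4 integrin of gut homing (4.06 ± 0.19, limma adjusted p = 0.00262). The CD8 T and NK cell markers summed to 359.7 to 551.3 without and 880.0 to 1239 with RA. On average Nkg7 was at 7.85 and 9.62, and Cd8a at 5.41 and 5.47. In the co-culture the same sum was lower with RA. Its part in the Ifitm3 difference was not tested.

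LP-DC were also set against Sp-DC, both without added RA. This comparison shares its Sp-DC arrays with the RA contrast on which the genes were chosen, so its values for the Ifitm genes are a description. In Foxp3+ cells Ifitm1 differed by -0.75 ± 0.28 (limma adjusted p = 0.536, paired 0.123), Ifitm2 by -0.38 ± 0.40 (0.956, paired 0.585) and Ifitm3 by 0.74 ± 0.57 (0.891, paired 0.522). For Ifitm3 the array pairs disagreed, at -0.16 for number 1 and 1.64 for number 2. In Foxp3- cells the differences were -1.23 ± 0.28 for Ifitm1 (adjusted p = 0.470, paired 0.0529), -1.54 ± 0.40 for Ifitm2 (0.505, paired 0.0556) and -0.91 ± 0.57 for Ifitm3 (0.936, paired 0.443). Between the Foxp3- arrays numbered 2 alone they were -0.96, -1.11 and -0.21. In 3 of 9 other settings of the paired fit Ifitm1 passed, and likewise Ifitm2. Ifitm1 and Ifitm2, 2 of 3, were lower with LP-DC without overlap in each sort, against 18.6% of all genes in Foxp3+ and 17.7% in Foxp3- cells.

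None of the 3 genes was called in either sort in either fit. At an unadjusted p of 0.05 limma gave 1 of 3 in Foxp3+ cells in each fit and 2 of 3 in Foxp3- cells in each fit. Of all 11695 genes, 904 (unpaired) and 2167 (paired) were under that p in Foxp3+ cells, in either direction. In Foxp3- cells 765 and 1951 were. Over all genes, 0% were called lower unpaired in both sorts, and 0.564% and 0.487% paired. For the Ifitm genes nothing is read from these counts. Of the retinoid list only Itga4 passed with LP-DC, in Foxp3+ cells in the paired fit (1.72 ± 0.26, adjusted p = 0.0269).

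The cultures with LP-DC and with Sp-DC plus RA are set side by side as a description, since the genes were chosen for low values with RA. In Foxp3+ cells Ifitm3 was 26.0-fold higher with LP-DC (4.70 ± 0.57), the largest difference upward of 11695 genes, and Ifitm1 12.8-fold higher (3.68 ± 0.28), the second largest. Ifitm2 was 3.83-fold higher (1.94 ± 0.40). The unpaired fit called 2 of 3 and the paired fit 3 of 3, against 0.0342% and 1.13% of all genes called higher. The groups did not overlap for 3 of 3, against 15.5% of all genes.

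Foxp3+ against Foxp3- cells of the same culture asks whether the members follow the regulatory sort. With LP-DC the difference itself uses no array of the RA contrast. The spread behind its p-values, and the block of the paired fit, come from all 11 co-culture arrays, which include those of that contrast. Ifitm3 was 6.04-fold higher in Foxp3+ cells with LP-DC (2.59, standard error 0.57 unpaired and 0.52 paired). It passed in the paired fit (limma adjusted p = 0.0269) and not unpaired (0.157). Ifitm2 rose 2.80-fold in the paired fit (1.48 ± 0.40 unpaired and ± 0.31 paired; adjusted p = 0.273 and 0.0298). Ifitm1 differed by 0.48 ± 0.28 (adjusted p = 1.00, paired 0.477), and its groups overlapped.

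For Ifitm3 the difference was 3.28 between arrays numbered 1 and 1.91 between those numbered 2, and for Ifitm2 2.02 and 0.94. Thus 0 of 3 genes were called unpaired and 2 of 3 paired, against 0.137% and 2.35% of all genes called higher. At an unadjusted p of 0.05 both fits gave 2 of 3, against 696 (unpaired) and 1437 (paired) of 11695 genes in either direction. For 2 of 3 the groups did not overlap, against 14.8% of all genes. With each of 11 arrays left out in turn, the paired fit called Ifitm2 in 6 fits and Ifitm3 in 4 (limma adjusted p up to 0.237 and 0.147). Both were lost without LP-DC Foxp3- array 1, LP-DC Foxp3+ array 1 or 2, or Sp-DC Foxp3- array 1 or 2, and Ifitm3 also without RA Foxp3+ array 1 or 2.

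**Figure D3:**
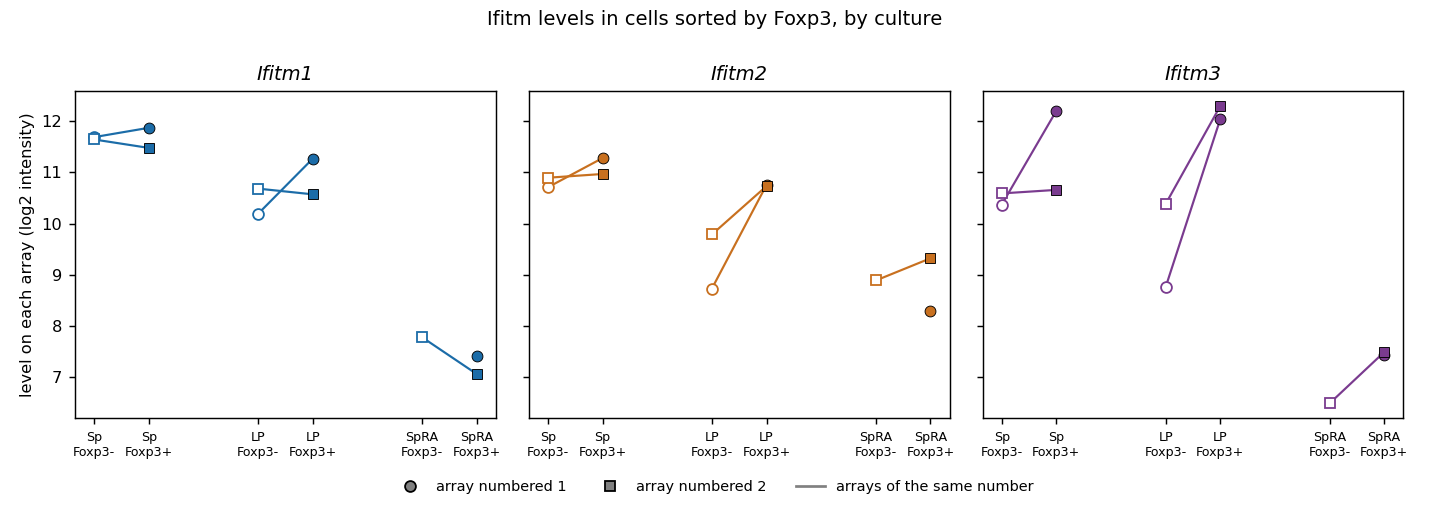
Level of each Ifitm gene (log2 intensity, y axis) in Foxp3- (open) and Foxp3+ cells (filled) of the cultures with Sp-DC, LP-DC and Sp-DC plus RA (x axis); lines join arrays of the same number. Ifitm3 goes up on both lines with LP-DC, by 3.28 and 1.91, and with Sp-DC by 1.83 and 0.07.

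The sort with Sp-DC, and the mean over all 3 cultures, use arrays of the RA contrast on which the genes were chosen, so their values are a description. With Sp-DC, 0 of 3 genes passed in either fit (limma; 0 at an unadjusted p of 0.05 in each), against 0% and 0.274% of all genes called higher. For Ifitm2 and Ifitm3, 2 of 3, the groups did not overlap, against 12.6% of all genes. Ifitm1 differed by 0.01 ± 0.28, Ifitm2 by 0.32 ± 0.40 and Ifitm3 by 0.95 ± 0.57. The Ifitm3 value came from the arrays numbered 1 (1.83), since those numbered 2 differed by 0.07. Over the mean of the 3 cultures, Ifitm3 differed by 1.51 ± 0.36 unpaired and 1.53 ± 0.33 paired, Ifitm2 by 0.57 ± 0.25 and Ifitm1 by -0.02 ± 0.17. The fits called 0 and 1 of 3, against 0.436% and 2.55% of all genes called higher, and nothing is read from these counts.

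The sort difference with LP-DC minus that with Sp-DC was fitted as an interaction. This uses the Sp-DC arrays on which the genes were chosen, so its values for the Ifitm genes are a description. The interaction was 0.47 ± 0.39 for Ifitm1, 1.16 ± 0.56 for Ifitm2 and 1.64 ± 0.81 for Ifitm3. The adjusted p was 1.00 for each in both limma fits, which called 0 of 11695 genes (0%), with 102 and 423 under an unadjusted p of 0.05. Whether the sort differences of the cultures differ is not read from these values. The CD8 T and NK cell markers also moved with the sort, summing to 4252 to 5480 in Foxp3- and 1408 to 1918 in Foxp3+ cells with LP-DC, with Klrd1 at 11.43 and 8.87 on average. Their part in the Ifitm values was not tested.

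Cd81, the tetraspanin partner of IFITM1, rose in Foxp3+ cells in the paired fit, by 1.82 ± 0.30 with Sp-DC (limma adjusted p = 0.0360) and by 2.86 ± 0.30 with LP-DC (0.00142). With RA it differed by -0.11 ± 0.48 in Foxp3+ cells, by 1.34 ± 0.59 in Foxp3- cells and by -0.39 ± 0.32 in memory cells, with no call in either fit. Of 9 tested genes of the tetraspanin list, 0 passed with RA in Foxp3+, Foxp3- or memory cells in either limma fit. At an unadjusted p of 0.05, 1 was higher in Foxp3+ cells unpaired and 2 paired. The median difference in Foxp3+ cells was 0.04, against -0.00 over all genes.

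The Ifitm genes were set beside other interferon-stimulated genes, 48 of which have a usable probe set. With RA in Foxp3+ cells, 9 of 43 tested lay above 0. In the unpaired limma fit 0 passed, with 5 lower and 0 higher at an unadjusted p of 0.05. In the paired fit 13 were lower and 0 higher at that p, and 2 passed as lower, against 0.522% of all genes. Of all 11695 genes, 553 (unpaired) and 1413 (paired) were under that unadjusted p in either direction. The list's median was -0.21 against -0.00 over all genes. The pair were Iigp1, an immunity-related GTPase (-1.48 ± 0.22, limma adjusted p = 0.0113), and Gbp2, a guanylate-binding protein (-1.13 ± 0.16, 0.0101). Every gene of the list differed by less than Ifitm2 (-2.32), but the Ifitm genes were chosen for their fall in this contrast, so nothing is read from that. In Foxp3- cells 0 passed in either limma fit (1 and 6 lower at an unadjusted p of 0.05), and the median was 0.01, against 0.05 over all genes.

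In memory cells, where Ifitm3 fell in the paired fit, 0 of 42 interferon-stimulated genes fell in either limma fit (0 unpaired and 3 paired at an unadjusted p of 0.05). The unpaired fit called 0 of 42 higher, against 0.0168% of all genes, with 5 higher at an unadjusted p of 0.05. In the paired fit 8 of 42 rose, against 2.46% of all genes. Among them were Ifih1, a sensor of viral RNA (1.26 ± 0.16, limma adjusted p = 0.00228), Ifit2 (1.23 ± 0.13, 0.00074), Lgals3bp (0.78 ± 0.13, 0.00957) and Ly6e (0.74 ± 0.15, 0.0271). The list's median was 0.15, against -0.00 over all genes. Irf7, a transcription factor of the interferon response, differed by -0.09 ± 0.42 with RA in Foxp3+ cells and 0.17 ± 0.36 in memory cells, and Irf9 by -0.06 ± 0.28 and 0.19 ± 0.24. Ifit1, near background at 5.03 with RA in Foxp3+ cells, differed by 0.14 ± 0.63.

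**Figure D4:**
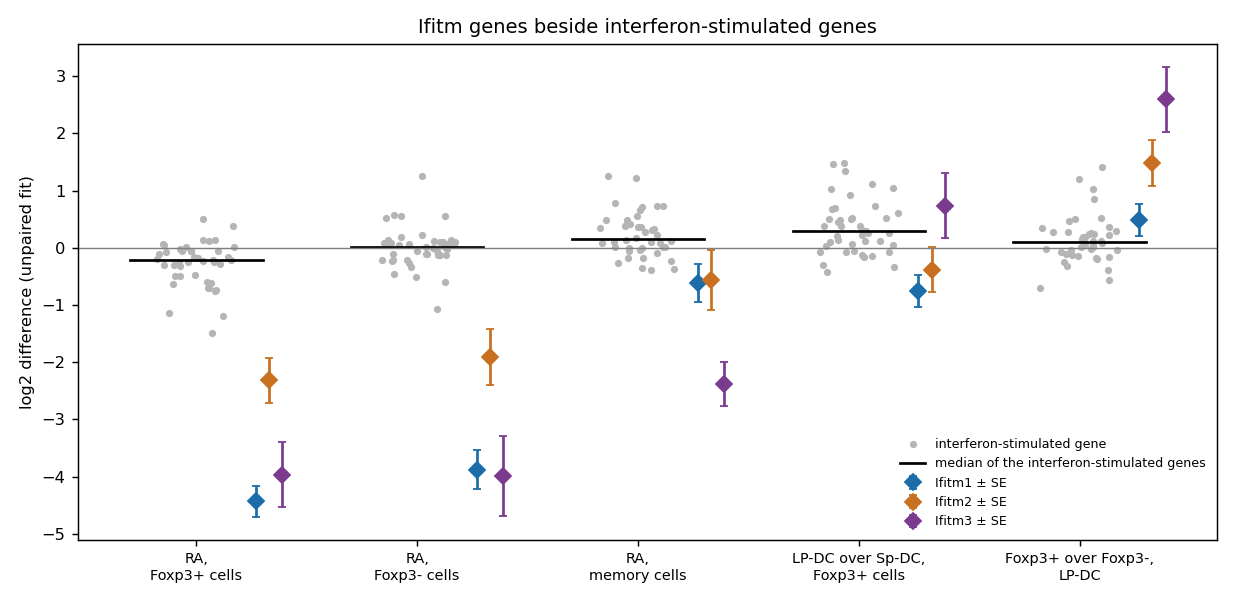
Log2 differences (y axis, unpaired fit) in 5 comparisons (x axis) for the tested interferon-stimulated genes (grey points, bar at their median) and for the Ifitm genes (diamonds, ± standard error). With RA in Foxp3+ cells the list's median is -0.21, and Ifitm1, Ifitm2 and Ifitm3 are at -4.43, -2.32 and -3.96.

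With LP-DC against Sp-DC in Foxp3+ cells, 33 of 43 interferon-stimulated genes were higher (median 0.29, against 0.00 over all genes), and 1, Gbp2, passed in the paired fit (0.92 ± 0.16, limma adjusted p = 0.0375), against 0.958% of all genes called higher. Ifitm1 and Ifitm2 lay below 0 in the same comparison, as a description. With LP-DC against Sp-DC plus RA in Foxp3+ cells, 41 of 43 interferon-stimulated genes were higher (median 0.42, against 0.01 over all genes). Of these, 8 passed in the paired limma fit and 0 unpaired, against 1.13% and 0.0342% of all genes called higher. With the LP-DC sort, Gbp3 (1.42 ± 0.16, limma adjusted p = 0.00185), Gbp2 (1.21 ± 0.16, 0.00371) and Isg20 (1.03 ± 0.23, 0.0406) rose in the paired fit, which also called Ifitm2 and Ifitm3. That was 3 of 43, against 2.35% of all genes called higher. The unpaired fit called 0 of 43, against 0.137%. Among 19 genes of interferon receptors and signalling, 0 passed with RA in Foxp3+ cells in either limma fit (0 unpaired at an unadjusted p of 0.05, and 2 higher and 2 lower paired). In memory cells 1 of the 19 passed in the paired fit, against 2.46% of all genes called higher, and 0 passed unpaired. Ifngr1, a chain of the receptor for interferon gamma, was the 1 that passed, with a rise of 1.60 ± 0.24 (limma adjusted p = 0.00552).

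On chromosome 7 the RefSeq order of protein-coding genes is Pgghg, Ifitm5, Ifitm2, Ifitm1, Ifitm3, Ifitm6, B4galnt4, Pkp3, Sigirr. The 3 genes thus lie side by side. Of 16 tested genes of a list of neighbours and other Ifitm genes, 0 passed with RA in Foxp3+ cells in either limma fit, and 0 of 15 in memory cells. At an unadjusted p of 0.05, 1 was lower unpaired and 2 paired in Foxp3+ cells, and 0 in memory cells. In Foxp3+ cells with RA, Pgghg differed by -0.29, Ifitm5 by -0.38, B4galnt4 by -0.41, Pkp3 by -0.41 and Sigirr by 0.04. The tested genes on either side of the 3 Ifitm genes differed by less than 0.42 in Foxp3+ cells. The 3 were chosen for their low levels with RA, so their contrast with the neighbours is a description.

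**Figure D5:**
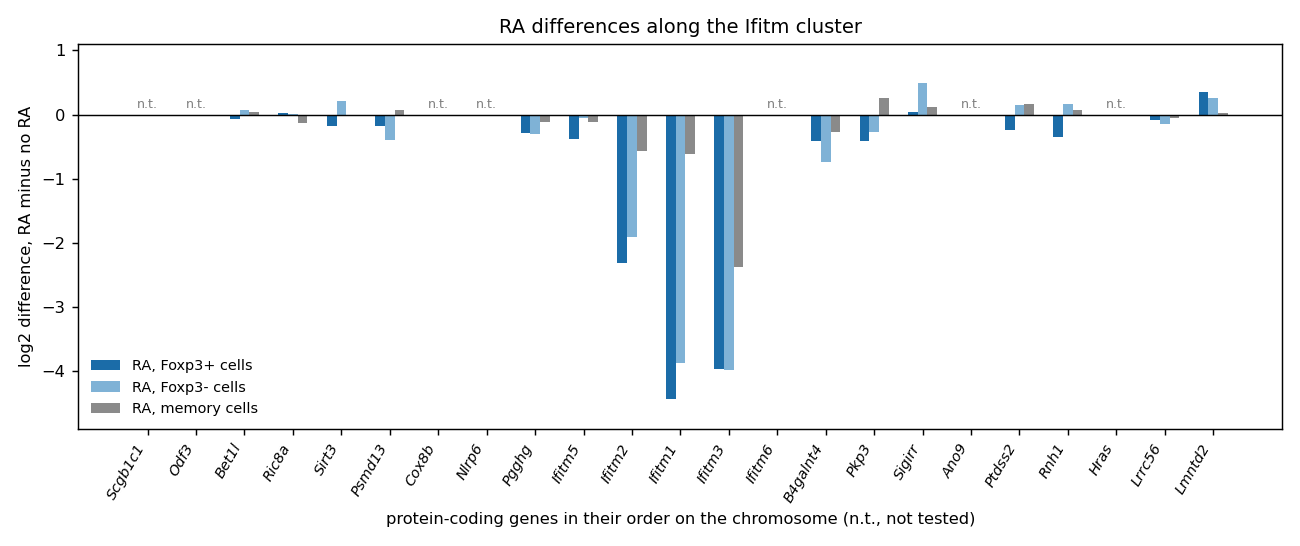
Log2 difference, RA minus no RA (y axis, unpaired fit), for protein-coding genes in their order along chromosome 7 around the Ifitm cluster (x axis), in Foxp3+, Foxp3- and memory cells; n.t. marks genes with no tested probe set. The bars of Ifitm2, Ifitm1 and Ifitm3 reach -2.32, -4.43 and -3.96 in Foxp3+ cells, and those of the neighbours lie between -0.74 and 0.50.

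Over the 11 co-culture arrays the 3 genes correlated with each other at r = 0.84 to 0.87 (Pearson). The arrays share groups and array numbers. The genes were chosen for low values on the arrays with RA, so a high r over all 11 is built in. Over the 8 co-culture arrays without RA, r was 0.83 for Ifitm1 with Ifitm2, 0.78 for Ifitm2 with Ifitm3 and 0.39 for Ifitm1 with Ifitm3. Over the 6 memory arrays r was 0.62 to 0.83.

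Among 2920 other genes that ranged over at least 1 log2 unit, those most like Ifitm1 over the co-culture arrays were E2f2 (r = 0.92), Chd7 (0.90), Il18r1 (0.87), Gpr15 (0.87) and Crip1 (0.86). Those most like Ifitm2 were Eomes (0.96), Fut4 (0.92), Macir (0.91), Tubb2b (0.88) and Hopx (0.88), and those most like Ifitm3 were AB124611 (0.94), Nlrc5 (0.90), Eomes (0.89), Fut7 (0.88) and Nuak2 (0.87). Eomes, a T-box transcription factor of effector T cells, is in the last 2 of these groups. Over the 6 memory arrays these correlations ran from -0.87 for Hopx to 0.97 for Tubb2b. The likeness over the co-culture arrays includes those with RA, on which the Ifitm genes were chosen, so it is a description.

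In memory cells 4 of the 13 of these genes that were tested fell with RA under the paired fit, against 2.16% of all genes. The unpaired fit called 0, against 0.0252%. The likeness did not use the memory arrays, but it picked genes that were low on the co-culture arrays with RA. A fall with RA in memory cells thus says nothing on likeness to the Ifitm genes, and nothing is read from these counts. The genes called are given as a description. These 4 were the fucosyltransferase Fut4 (-1.67, limma adjusted p = 0.00181), the chromatin remodeller Chd7 (-1.37, 0.000509), Macir (-1.34, 0.0043) and the fucosyltransferase Fut7 (-1.13, 0.00994). Eomes, the gene most like Ifitm2, differed by -0.17 (adjusted p = 0.680 paired), and Gpr15 by 0.06 (0.888 paired).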

How the data were processed

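RNA was amplified in 2 rounds, labelled with biotin and hybridised to Affymetrix mouse M430v2 arrays, per the labels' protocols. The deposited values are linear intensity values that the authors computed with RMA, per the labels; the version and the arrays normalised together are not stated in the labels. Log2 was taken with no pseudocount and no further normalisation. The number of arrays limits the precision. Each gene is represented by 1 probe set, from those with 1 symbol in the platform's gene table (34958 of 45101, while 932 name several genes and 9211 none). The set with the highest mean was taken, with sets whose names end in _s_at or _x_at used only where a gene had no other. Groups came from the sample titles; 5 Foxp3+ arrays have source names that read Foxp3-, and their titles and sort labels were followed. The Ifitm genes, the lists and the comparisons were chosen with earlier results of these data known.

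Each experiment had its own limma 3.58.1 model in R 4.3.3, with a coefficient for each group and moderated variances. P-values were adjusted by Benjamini and Hochberg's method over the 11695 (co-culture) or 11921 (memory) genes, and 0.05 was the threshold. The planned fit is unpaired. Residuals of same-numbered arrays correlated at 0.45 to 0.75 in the co-culture (10 pairs of groups) and 0.65 to 0.94 in the memory experiment (3 numbers), so the numbers pair the arrays, and the fit with the number as a block is printed beside it. Nothing in the labels says that arrays of a group came from separate cultures, and the p-values measure only the spread between these arrays. The fits were also run on simulated data with independent noise on each array and no effect of the array number. That simulation cannot show how either fit handles the pairing seen here. Always named were the 3 Ifitm genes, Irf7, Irf9, Ifit1 and Cd81, then up to 4 genes of a list that passed, by size, and the 5 genes most like each Ifitm gene. Isg15 was not used, because its probe set names a second gene, and 1 gene of the lists is not reported here. Genes beside Ifitm2 in the order of falls, the markers and the neighbours given with values were named after their values were seen. Alternatives were the number as a block, quantile normalisation, median-centring, no filter, trended or robust variances, all probe sets of a gene averaged, a stricter filter (60th percentile), a pseudocount of 32 before log2, one model over all 17 arrays and each array left out. Later additions, chosen after seeing the data, were the memory arrays numbered 1 or 3 removed, memory values under the array median set to it, the block added to every setting, and differences within each array number.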

Additional observations from a re-analysis of the deposited data

How the results depend on the processing

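The number of Ifitm genes called moved mainly with the array number as a replicate block. RA in Foxp3+ cells had 1 called in the unpaired fit, 3 with the block and 2 in one fit over all 17 arrays (1 to 2 with an array left out). RA in Foxp3- cells had 1, and 2 with the block (0 to 1 with an array left out). RA in memory cells had 0, and 1 with the block, in one fit over all arrays, without both arrays numbered 3 (with and without the block), without both numbered 1 with the block, and with values under the array median set to it with the block. LP-DC over Sp-DC plus RA had 2, and 1 with log2 of the value plus 32 (0 to 2 with an array left out). The sort with LP-DC had 0 and 2 with the block, and the mean over 3 cultures, a description, 0 and 1.

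The paired call of Ifitm3 in memory cells held in 9 of 9 other settings and with each of 6 arrays left out (adjusted p = 2.65e-09 to 0.00831, limma). A fit with an array left out also loses a complete pair. Its p-value then leans on the variance moderated over all genes, and the smallest ones are not stronger evidence. For the sort with LP-DC, Ifitm2 held in 9 of 9 and Ifitm3 in 8 of 9 settings.

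In the unpaired fits signs changed for 3 differences, none of them called. Ifitm1 with the Sp-DC sort went from 0.0087 to -0.015 under median-centring, and from -0.19 to 0.205 with an array left out. Its mean over 3 cultures went from -0.017 to 0.012 under quantile normalisation and 0.0074 with log2 of the value plus 32, and from -0.13 to 0.099 with an array left out. Ifitm3 for LP-DC over Sp-DC in Foxp3+ cells was 0.74, and -0.035 to 1.51 with an array left out, the lowest without Sp-DC Foxp3+ array 2. In the paired fits the range with an array left out spanned 0 for these 3 (for Ifitm3 -0.304 to 1.78, called only without Sp-DC Foxp3+ array 1) and for 4 more: Ifitm2 with LP-DC over Sp-DC in Foxp3+ cells (-0.816 to 0.057), Ifitm3 in Foxp3- cells (-1.84 to 0.029), and Ifitm2 (-0.115 to 0.758) and Ifitm3 (-0.091 to 1.99) with the Sp-DC sort. The causes were not tested. Groups of 1 or 2 arrays set the limit of every co-culture value.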
